A study of Mus musculus with 24 samples.

Results

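IsoAlloLCA (isoallolithocholic acid) was set against LCA (lithocholic acid) in mouse CD8+ T cells activated in vitro. The comparison uses 6 of the 24 RNA-seq libraries of the series, 3 with IsoAlloLCA and 3 with LCA, chosen by their titles, and the 3 Control libraries place each acid relative to cells labelled as control. Both acids were given at 50 µM. The exposure is given as 24 h in the series' design text and as overnight in the treatment protocol. The labels name no mouse strain, age, activating agent or vehicle for any of these groups. They do not say whether the 3 libraries of each group have different animals or cultures as their source. The p-values therefore measure the spread between libraries within groups, pooled over all 24 libraries, which may be technical.

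LCA is a secondary bile acid that gut bacteria make from a primary one by removing a hydroxyl group, and it is known as a ligand of the vitamin D receptor and of the cell-surface bile acid receptor encoded by Gpbar1. IsoAlloLCA is a bacterial isomer of LCA. Its ring hydroxyl points to the beta face of the steroid, where that of LCA points to the alpha face, and its A and B rings are joined in trans (the allo form), where those of LCA are joined in cis. IsoAlloLCA is known for favouring the differentiation of regulatory T cells from naive mouse CD4+ T cells. Activated CD8+ T cells are known to draw on glucose and amino acid uptake, cholesterol synthesis and ribosome production for growth, and genes of these programmes, of the interferon response and of T cell homing are the ones described here. The question is which of them the isomers moved in opposite directions and which they moved together.

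Levels are counts scaled to the library's size (CPM), given for each library. Differences are log2 differences, IsoAlloLCA minus LCA, and log2 fold changes of an acid over Control, each ± SE from the edgeR fit to all 24 libraries. "Rose", "fell", "higher" and "lower" are used of genes whose adjusted p (Benjamini-Hochberg) was under 0.05. The comparisons of the 2 acids with Control share the 3 Control libraries, so their values are set side by side and no likeness between them was computed. One pair of acids was compared directly. Total gene counts per library were 25998051 to 32882437 with IsoAlloLCA, 35016183 to 40516190.5 with LCA and 32308354.5 to 37269527.5 in Control. Counts in exons made up 78.3% ± 2.78 of the library total with IsoAlloLCA, 80.7% ± 1.52 with LCA and 82.6% ± 1.37 in Control (SD, n = 3 each), and the part of this difference in the results below was tested only by adding it to the fit as a covariate, which gave 8224 called genes in place of 8005. On the first principal component of the 9 libraries, with 66% of the variance, the IsoAlloLCA libraries lay at one end, and on the second, with 20%, the LCA and Control libraries separated. CD8 T cell markers (11 of 14 in the table) summed to 4810 to 5390 CPM with IsoAlloLCA, 4770 to 5030 CPM with LCA and 4900 to 5030 CPM in Control. Myeloid markers summed to 74.2 to 75.7 CPM with IsoAlloLCA, 45.6 to 47.8 CPM with LCA and 50.1 to 51.8 CPM in Control, with S100a8 and S100a9 at 0. Most of this sum came from Cst3, which averaged 65.9 CPM with IsoAlloLCA, 41.2 CPM with LCA and 46.2 CPM in Control. B cell markers stayed at or below 6.63 CPM and erythroid markers at or below 0.93 CPM. NK cell markers summed to 28.7 to 30 CPM with IsoAlloLCA, 33.9 to 37.6 CPM with LCA and 43.4 to 47.9 CPM in Control, most of it from Eomes and Gzma. Of the 7 NK cell markers tested, 3 were higher and 1 lower with IsoAlloLCA than with LCA (32.3% and 29.1% of all genes tested). Stromal and endothelial markers summed to 47.5 to 53.2 CPM with IsoAlloLCA, 34.9 to 40.8 CPM with LCA and 48.6 to 54.9 CPM in Control, most of it from Pecam1, with Alb, Col3a1, Dcn and Krt8 at 0. CD4 and regulatory T cell markers summed to 629 to 738 CPM with IsoAlloLCA, 339 to 354 CPM with LCA and 412 to 443 CPM in Control, most of it from Ctla4, while Cd4 itself averaged 0.969 CPM with IsoAlloLCA, 0.571 CPM with LCA and 0.578 CPM in Control. The part of these marker differences in the results was not tested. In bulk libraries, fewer cells of a type and less RNA per cell cannot be told apart.

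Of the 13044 genes tested, 4212 (32.3%) were higher and 3793 (29.1%) lower with IsoAlloLCA than with LCA, 8005 in all (61.4%), and the libraries of the 2 acids did not overlap in 7405 of these. The 95% interval of a difference reached a median of 0.13 to either side on the log2 scale, so small differences could be called. Differences beyond 2-fold were more often higher with IsoAlloLCA, in 636 genes (4.88%), than lower, in 175 genes (1.34%). Against Control, 3986 genes (30.6%) rose and 3632 (27.8%) fell with IsoAlloLCA, and 2312 (17.7%) rose and 2453 (18.8%) fell with LCA. These shares of all genes tested are the background for the counts of list members below, also where they are not repeated. Among ranked genes (called, at least 10 CPM in a group, an established symbol and no overlap between the acids), the 10 with the largest higher differences included Selp, Tnfsf4, Klhl24, Ak1, Pygl, Gucy2e, Tcp11l2, Itgb3 and Arl5c, from 3.27 in Selp to 2.34 in Arl5c. The 10 with the largest lower ones were Rtp4, Usp18, Isg15, Tnfrsf8, Aldh1l2, Enah, Gpt2, Lif, Chac1 and Cth, from -3.12 in Rtp4 to -1.56 in Cth. Ak1, an adenylate kinase, and Enah, an actin regulator, are not described further and averaged 10.7 and 7.25 CPM with IsoAlloLCA and 1.78 and 23.3 CPM with LCA. The median log2 difference over all genes tested was 0.02 between the acids, 0.03 for IsoAlloLCA over Control and 0.01 for LCA over Control.

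Promoters are shown for 3 genes from programmes described here. Isg15, an interferon-stimulated gene, and Pycr1, of amino acid synthesis, moved in opposite directions with the isomers. Hmgcs1, of cholesterol synthesis, fell with both. The genes were chosen among list members with a match in the promoter, so a match in each printed promoter was certain beforehand. Each runs 5′ to 3′ from 250 bases before to 50 bases after a start of the gene in the RefSeq annotation of GRCm38.p6. For Pycr1 this start lies upstream of that of the transcript counted in the deposited table, which is outside the window. Capitals mark matches to the motif searched on both strands, which are GAAANNGAA (core of the interferon-stimulated response element; 3 overlapping matches in Isg15), TGATGNAAT (ATF4-C/EBP element) and TCACNCCAC (sterol regulatory element).
Isg15 (chr4:156200769-156201068, minus strand): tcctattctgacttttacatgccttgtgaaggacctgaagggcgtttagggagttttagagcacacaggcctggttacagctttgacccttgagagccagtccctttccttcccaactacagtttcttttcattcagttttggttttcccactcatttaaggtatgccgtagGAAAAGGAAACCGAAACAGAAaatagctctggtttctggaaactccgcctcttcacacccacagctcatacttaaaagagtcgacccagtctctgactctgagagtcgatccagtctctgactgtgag
Pycr1 (chr11:120643699-120643998, minus strand): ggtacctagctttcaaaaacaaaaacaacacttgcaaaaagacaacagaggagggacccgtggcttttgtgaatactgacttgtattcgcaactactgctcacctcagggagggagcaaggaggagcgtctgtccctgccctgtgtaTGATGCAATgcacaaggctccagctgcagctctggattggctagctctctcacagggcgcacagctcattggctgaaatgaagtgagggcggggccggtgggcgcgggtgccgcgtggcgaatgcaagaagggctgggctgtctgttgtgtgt
Hmgcs1 (chr13:119690101-119690400, plus strand): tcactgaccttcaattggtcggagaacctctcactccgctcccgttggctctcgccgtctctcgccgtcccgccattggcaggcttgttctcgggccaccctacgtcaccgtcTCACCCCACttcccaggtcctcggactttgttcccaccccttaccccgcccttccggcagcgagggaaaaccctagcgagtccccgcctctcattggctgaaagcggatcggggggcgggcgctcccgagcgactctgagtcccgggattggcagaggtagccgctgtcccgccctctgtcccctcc
GAAANNGAA was found in 20 of 35 promoters of the interferon-stimulated gene list (57.1%), against 8.56% of all 32851 promoters. TGATGNAAT was found in 3 of 15 promoters of the tRNA synthetase list (20%), 1 of 17 of the serine, one-carbon and cysteine list (5.88%), 1 of 23 of the integrated stress response list (4.35%) and 0 of 15 of the amino acid transporter list, against 0.965% of all promoters. TCACNCCAC was found in 1 of 21 promoters of the cholesterol synthesis list (4.76%), against 1.24% of all. A match describes the letters in this window and is not a measured binding site.

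The interferon-stimulated genes, which cells switch on when type I interferon is sensed and whose products block viral replication, moved in opposite directions. Of 40 members tested, 1 was higher and 37 were lower with IsoAlloLCA than with LCA, where 32.3% and 29.1% of all tested genes were. Against Control, 31 of the 40 fell and 0 rose with IsoAlloLCA (27.8% and 30.6% of all genes), and 4 fell and 27 rose with LCA (18.8% and 17.7% of all genes). The median of the members was -0.99 between the acids, -0.56 for IsoAlloLCA and 0.50 for LCA over Control. Isg15, a ubiquitin-like protein that is attached to other proteins (chromosome 4, 156199424 to 156200818, minus strand, mm10), had 4.17, 3.33 and 3.24 CPM with IsoAlloLCA, 16.5, 15.7 and 15.2 CPM with LCA and 5.79, 7.71 and 4.69 CPM in Control. Each IsoAlloLCA library lay below each Control library and each LCA library above them (difference -2.14 ± 0.14, edgeR adjusted p = 2.34e-12; -0.75 ± 0.16 for IsoAlloLCA and 1.39 ± 0.13 for LCA over Control). Usp18, which removes Isg15 from its targets, had 2.69, 2.72 and 2.57 CPM with IsoAlloLCA, 14.8, 13.9 and 14.4 CPM with LCA and 6.66, 6.97 and 5.11 CPM in Control. Its order was the same and without overlap, with a difference of -2.43 ± 0.16. Rtp4, an interferon-induced transmembrane protein and the largest fall among genes of at least 10 CPM in a group, had 1.21, 1.36 and 1.26 CPM with IsoAlloLCA, 12, 10.5 and 10.9 CPM with LCA and 3.75, 4.24 and 3.26 CPM in Control. LCA libraries were again above Control and IsoAlloLCA libraries below it (-3.12 ± 0.19, edgeR adjusted p = 4.1e-13).

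Sensors, transcription factors and effectors of the interferon response were all among the genes that differed. Irf7, the factor that amplifies the response, averaged 7.52 ± 0.322 CPM with IsoAlloLCA, 18.6 ± 0.389 CPM with LCA and 10.1 ± 1.61 CPM in Control (difference -1.30 ± 0.13), and Xaf1, an interferon-induced apoptosis factor, averaged 6.87 ± 0.412 CPM with IsoAlloLCA, 20.03 ± 0.789 CPM with LCA and 11.4 ± 1.47 CPM in Control (difference -1.55 ± 0.09). Both fell with IsoAlloLCA and rose with LCA. The RNA sensors Ifih1 and Ddx58 rose with LCA (0.59 ± 0.09 and 0.58 ± 0.07) and did not pass with IsoAlloLCA (-0.19 ± 0.10 and -0.05 ± 0.08). Stat2, a subunit of the interferon-activated transcription complex, fell with IsoAlloLCA (-0.55 ± 0.07) and did not pass with LCA (0.06 ± 0.07), whereas its partner Irf9 fell with IsoAlloLCA (-0.19 ± 0.06) and rose with LCA (0.32 ± 0.05). The oligoadenylate synthetase-like genes Oasl1 and Oasl2 were scarce, at 0.793 and 0.776 CPM on average with IsoAlloLCA and 5.05 and 5.82 CPM with LCA, and their reads may be shared with each other. Samd9l, an antiviral factor, was the 1 member higher with IsoAlloLCA (0.22 ± 0.07), a call lost without IsoAlloLCA replicate 2 (0.16). The genes Ifnar1 and Ifnar2, which encode the interferon receptor, did not move alike: Ifnar1 was higher with IsoAlloLCA (0.55 ± 0.06) and Ifnar2 lower (-0.23 ± 0.05). 

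Genes of the interferon gamma response and of antigen presentation were mixed, with 10 of 29 higher, 14 lower and 5 not passing between the acids. For all genes tested, the shares were 32.3% higher and 29.1% lower. Among the guanylate-binding and immunity-related GTPases, which act against intracellular pathogens, Irgm1 (-0.997 ± 0.07), Iigp1 (-0.97 ± 0.07) and Gbp6 (-0.78 ± 0.05) were lower with IsoAlloLCA, and Gbp2 (1.004 ± 0.06) and Gbp5 (0.99 ± 0.05) higher. These families hold near-identical copies between which reads may be divided. Irf8, a transcription factor induced by interferon gamma and by T cell activation, had 53.7, 39.98 and 49.96 CPM with IsoAlloLCA, 111, 111 and 113 CPM with LCA and 119.8, 123 and 126 CPM in Control. IsoAlloLCA libraries were at less than the lowest of the other groups, and LCA did not pass against Control. The class I molecule genes H2-K1 (0.26 ± 0.03), H2-D1 (0.29 ± 0.04) and B2m (0.42 ± 0.05) were higher with IsoAlloLCA, and the immunoproteasome subunit genes Psmb8 (-0.39 ± 0.04), Psmb9 (-0.23 ± 0.05) and Psmb10 (-0.32 ± 0.04) lower. 

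The second programme in which the isomers were opposed was amino acid supply, much of it controlled by the transcription factor ATF4 in other settings. Of 20 serine, one-carbon and cysteine synthesis genes, 1 was higher and 18 were lower with IsoAlloLCA than with LCA. 14 fell and 1 rose with IsoAlloLCA over Control, and 1 fell and 14 rose with LCA, with medians of -0.45 and 0.28. Pycr1, an enzyme of proline synthesis (chromosome 11, 120635712 to 120643670, minus strand), had 6.56, 6.62 and 6.14 CPM with IsoAlloLCA, 14.3, 16.8 and 14.8 CPM with LCA and 8.82, 10.6 and 8.86 CPM in Control. The 3 groups did not overlap, with LCA above and IsoAlloLCA below Control (-1.24 ± 0.09, edgeR adjusted p = 1.05e-11). Asns, which makes asparagine, had 110.4, 107 and 102 CPM with IsoAlloLCA, 229.6, 250.3 and 229.8 CPM with LCA and 133, 154 and 149.8 CPM in Control. The groups were in the same order and did not overlap (-1.15 ± 0.06). The alanine aminotransferase gene Gpt2 (-1.66 ± 0.11), the mitochondrial folate enzyme gene Aldh1l2 (-1.89 ± 0.15) and the glutathione-degrading enzyme gene Chac1 (-1.59 ± 0.11) also fell with IsoAlloLCA and rose with LCA. Phgdh, Psat1 and Psph, the enzymes that make serine from a glycolytic intermediate, moved the same way, with log2 fold changes of -0.44 ± 0.04, -0.55 ± 0.04 and -0.40 ± 0.06 for IsoAlloLCA and 0.22 ± 0.04, 0.21 ± 0.04 and 0.25 ± 0.05 for LCA. Cth, which makes cysteine from cystathionine, was an exception: it had 5.53, 4.86 and 4.72 CPM with IsoAlloLCA, 12.8, 17.3 and 14.5 CPM with LCA and 3.28, 4.55 and 4.81 CPM in Control. It rose only in the test of LCA over Control (1.81 ± 0.17), and IsoAlloLCA libraries overlapped Control (0.26 ± 0.19, edgeR adjusted p = 0.252).

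Amino acid transporters and tRNA synthetases, which load amino acids onto tRNA, followed the same pattern. Of 15 transporter genes, 1 was higher, 10 were lower and 4 did not pass. 2 rose and 10 fell with IsoAlloLCA, and 10 rose and 1 fell with LCA over Control. Slc7a5, the light chain of the large neutral amino acid transporter, had 347, 308 and 343 CPM with IsoAlloLCA, 810.2, 837 and 814 CPM with LCA and 549.8, 604 and 627 CPM in Control. No library of one group reached into another (-1.30 ± 0.06, edgeR adjusted p = 3.08e-15). Its heavy chain partner Slc3a2 averaged 217 ± 9.61 CPM with IsoAlloLCA, 411 ± 6.61 CPM with LCA and 282 ± 12.4 CPM in Control. The arginine transporter gene Slc7a3 (-1.44 ± 0.10), the glycine transporter gene Slc6a9 (-1.48 ± 0.12) and the neutral amino acid transporter gene Slc1a4 (-1.22 ± 0.08) fell with IsoAlloLCA and rose with LCA. Slc38a2, a glutamine transporter, was the member higher with IsoAlloLCA (0.12 ± 0.04), a call lost without IsoAlloLCA replicate 2 (0.07), without LCA replicate 1 (0.09) and with the replicate number as a block within the 6 libraries (0.09, edgeR adjusted p = 0.0654). Of 22 cytosolic tRNA synthetase genes, 1 was higher, 20 were lower and 1 did not pass, with a median of -0.59. 1 rose and 20 fell with IsoAlloLCA, and 13 rose and 0 fell with LCA over Control. The alanine enzyme gene Aars had 202, 197 and 194 CPM with IsoAlloLCA, 377, 398 and 384 CPM with LCA and 283, 301 and 294 CPM in Control. The order of the groups was that of Slc7a5, without overlap (-0.97 ± 0.03). Qars, the glutamine enzyme gene, was the 1 member higher with IsoAlloLCA (0.16 ± 0.04). 

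The regulators of the integrated stress response were divided. Of 20 members, 5 were higher, 13 lower and 2 did not pass between the acids. Trib3, a pseudokinase that restrains the response, had 48.6, 51.6 and 44.1 CPM with IsoAlloLCA, 117, 135 and 123 CPM with LCA and 64.2, 73.6 and 72.4 CPM in Control. LCA libraries lay above and IsoAlloLCA libraries below Control (-1.37 ± 0.07, edgeR adjusted p = 7.36e-14). Nupr1, a stress-induced chromatin protein (-1.79 ± 0.13), and Cebpb, a transcription factor (-1.29 ± 0.10), were likewise lower with IsoAlloLCA and above Control with LCA. Atf4 itself fell with IsoAlloLCA (-0.46 ± 0.05) and did not pass with LCA (0.09 ± 0.05), and Atf5 rose with LCA (1.16 ± 0.08) and did not pass with IsoAlloLCA (0.08 ± 0.09). Other members went the other way or moved together. Eif2ak3, the endoplasmic reticulum kinase that starts the response, had 130.1, 143 and 136 CPM with IsoAlloLCA, 56.7, 58.3 and 58.9 CPM with LCA and 68.8, 62.6 and 57.6 CPM in Control. Only the IsoAlloLCA libraries stood apart (1.23 ± 0.06). Atf3, a stress-induced factor, rose with both acids (0.74 ± 0.11 with IsoAlloLCA and 0.39 ± 0.11 with LCA) and was higher with IsoAlloLCA (0.35 ± 0.11). Ddit3, which encodes the death-linked factor CHOP, also rose with both (0.40 ± 0.09 with IsoAlloLCA and 0.24 ± 0.09 with LCA), and the acids differed by 0.16 ± 0.09 with a 95% interval of -0.03 to 0.35, a difference that passed without IsoAlloLCA replicate 1 (0.24). 

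Genes of the Myc network and of ribosome biogenesis were the third opposed group. Of 29 members, 3 were higher, 25 lower and 1 did not pass between the acids, with a median of -0.68. 25 fell and 3 rose with IsoAlloLCA, and 3 fell and 17 rose with LCA over Control. Nop56, a component of small nucleolar ribonucleoproteins that modify ribosomal RNA, had 237, 222 and 248 CPM with IsoAlloLCA, 459, 471 and 483 CPM with LCA and 345, 339 and 357 CPM in Control. The 3 groups were separate (-0.999 ± 0.05, edgeR adjusted p = 3.31e-14). Srm, which makes spermidine (-0.96 ± 0.07), the RNA polymerase I subunit gene Polr1b (-0.91 ± 0.06) and nucleolin, Ncl (-0.75 ± 0.06), were also lower with IsoAlloLCA and above Control with LCA. Myc itself fell slightly with both acids (-0.46 ± 0.07 with IsoAlloLCA and -0.17 ± 0.07 with LCA) and was lower with IsoAlloLCA (-0.29 ± 0.07). Mxd4, which opposes Myc at its binding sites, had 13.4, 17.1 and 12.4 CPM with IsoAlloLCA, 3.19, 3.05 and 3.13 CPM with LCA and 4.15, 4.68 and 4.17 CPM in Control. It rose with IsoAlloLCA, whose 3 libraries were above all others, and fell with LCA (2.20 ± 0.11). The cytosolic ribosomal protein genes, by contrast, changed little: 35 of 57 were higher with IsoAlloLCA, 0 were lower and 22 did not pass, with a median of 0.12. No member of that list differed by more than 0.42, in Rps27.

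**Figure D1:**
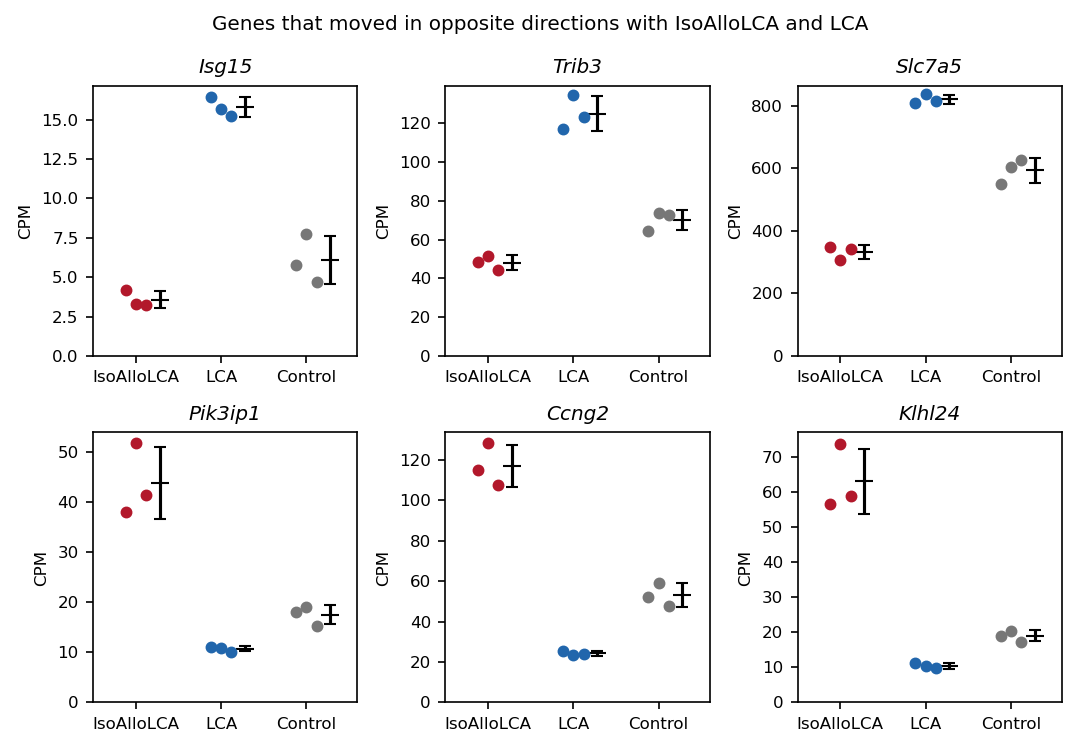
Levels in CPM (linear axis from 0) of 6 genes in each IsoAlloLCA, LCA and Control library, with the mean and SD (n = 3) beside the points. Isg15, Trib3 and Slc7a5 are highest with LCA and lowest with IsoAlloLCA, and Pik3ip1, Ccng2 and Klhl24 are highest with IsoAlloLCA and lowest with LCA.

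The FOXO, trafficking and naive and memory T cell lists held more genes that were higher with IsoAlloLCA than with LCA. Of 20 FOXO factors and targets, 17 were higher, 0 were lower and 3 did not pass between the acids, with a median of 1.18. 17 rose and 0 fell with IsoAlloLCA, and 1 rose and 9 fell with LCA over Control. Ccng2, a cyclin of cells leaving the cycle (chromosome 5, 93267573 to 93276231, plus strand), had 115, 128 and 108 CPM with IsoAlloLCA, 25.6, 23.3 and 24.2 CPM with LCA and 52.1, 59.4 and 47.9 CPM in Control. Its groups did not overlap, with IsoAlloLCA above and LCA below Control (2.26 ± 0.13, edgeR adjusted p = 1.08e-13; 1.14 ± 0.12 for IsoAlloLCA and -1.12 ± 0.13 for LCA over Control). Klhl24, an adaptor for protein ubiquitination, is not in the FOXO list and is among the largest differences. It had 56.5, 73.6 and 58.7 CPM with IsoAlloLCA, 11.1, 10.3 and 9.68 CPM with LCA and 19, 20.5 and 17.3 CPM in Control. This gene too was separate in the 3 groups (2.603 ± 0.14). The inhibitor of phosphoinositide 3-kinase Pik3ip1 (2.03 ± 0.11), the kinase-like Trib2 (1.64 ± 0.11), the cell cycle inhibitor Cdkn1b (1.29 ± 0.09) and the glucose uptake inhibitor Txnip (0.98 ± 0.07) also rose with IsoAlloLCA and fell with LCA. Foxo1 and Foxo4 did not pass in any of the 3 comparisons, and Foxo3 was higher with IsoAlloLCA (0.69 ± 0.05). 

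Among trafficking and adhesion genes, 17 of 26 were higher and 3 lower with IsoAlloLCA than with LCA. 15 rose and 6 fell with IsoAlloLCA, and 1 rose and 13 fell with LCA over Control. Klf2, the transcription factor that maintains exit from and entry to lymphoid tissue, had 48.6, 55.6 and 45.4 CPM with IsoAlloLCA, 15.2, 13.7 and 16 CPM with LCA and 44.6, 35.7 and 31.8 CPM in Control, and its target S1pr1, the receptor that guides exit, had 56.4, 62.1 and 56.5 CPM with IsoAlloLCA, 24.4, 21.2 and 22.8 CPM with LCA and 42.1, 39.6 and 33.7 CPM in Control. In both genes the groups did not overlap and Control lay between the acids (differences 1.74 ± 0.16 and 1.35 ± 0.16). Cxcr4, a chemokine receptor, was ordered likewise (1.52 ± 0.08; 0.84 ± 0.07 for IsoAlloLCA and -0.68 ± 0.08 for LCA over Control). Selp, P-selectin, usually a protein of platelets and endothelium, showed the largest difference among genes of at least 10 CPM in a group, with 10.5, 13.9 and 12.6 CPM with IsoAlloLCA, 1.13, 1.46 and 1.25 CPM with LCA and 4.89, 4.62 and 4.14 CPM in Control. It was separate in the 3 groups (3.27 ± 0.14, edgeR adjusted p = 5.56e-16), while Pecam1, an endothelial marker that T cells also express, averaged 46.8 ± 2.75 CPM with IsoAlloLCA, 32.6 ± 3.26 CPM with LCA and 47.4 ± 3.35 CPM in Control. Itgb3, the beta subunit of the vitronectin receptor, had 96.4, 130.4 and 101 CPM with IsoAlloLCA, 22, 22.3 and 19.7 CPM with LCA and 24.6, 27.5 and 23.5 CPM in Control. It stood apart with IsoAlloLCA (2.36 ± 0.11), and LCA over Control did not pass (-0.24 ± 0.12). The chemokine receptor gene Ccr7, another marker of lymph node homing, averaged 251 ± 28.7 CPM with IsoAlloLCA, 97.7 ± 3.47 CPM with LCA and 110.0 ± 4.67 CPM in Control, and Cxcr6, a receptor of tissue-resident T cells, averaged 110.4 ± 3.37 CPM with IsoAlloLCA, 50.7 ± 3.51 CPM with LCA and 50.4 ± 3.75 CPM in Control. Both rose with IsoAlloLCA and did not pass with LCA. Cxcr3, a receptor of effector T cells, fell with both acids (-1.40 ± 0.10 with IsoAlloLCA and -0.40 ± 0.09 with LCA) and was lower with IsoAlloLCA (-1.002 ± 0.10). 

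Naive and memory T cell genes were higher with IsoAlloLCA than with LCA in 17 of 27, lower in 5 and did not pass in 5. 14 rose and 8 fell with IsoAlloLCA, and 1 rose and 13 fell with LCA over Control. Tcf7, the transcription factor of stem-like and memory T cells, had 327, 383 and 305 CPM with IsoAlloLCA, 137, 130.1 and 129.7 CPM with LCA and 121, 116 and 118 CPM in Control. IsoAlloLCA libraries were above all others (1.36 ± 0.13, edgeR adjusted p = 2.17e-09), and LCA over Control did not pass (0.16 ± 0.13). Il7r, the receptor for the survival cytokine IL-7, averaged 246 ± 18.8 CPM with IsoAlloLCA, 117 ± 3.85 CPM with LCA and 124 ± 5.49 CPM in Control (difference 1.08 ± 0.05), and Bach2, a repressor of effector differentiation, averaged 108 ± 11.4 CPM with IsoAlloLCA, 41.5 ± 1.15 CPM with LCA and 46.9 ± 3.8 CPM in Control (difference 1.37 ± 0.08). Both rose with IsoAlloLCA over Control. Lef1, the relative of Tcf7, fell with both acids (-0.12 ± 0.05 with IsoAlloLCA and -0.50 ± 0.05 with LCA) and Eomes, a factor of effector and memory cells, fell with both as well (-0.84 ± 0.08 with IsoAlloLCA and -0.25 ± 0.08 with LCA). 

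Lysosome and autophagy genes were higher with IsoAlloLCA in 30 of 37, lower in 2 and did not pass in 5, with a median of 0.39. 25 rose and 1 fell with IsoAlloLCA, and 8 rose and 16 fell with LCA. Map1lc3b, which coats autophagosomes (0.76 ± 0.05), and the lysosomal enzyme genes Gla (0.63 ± 0.07) and Ctsb (0.53 ± 0.04) rose with IsoAlloLCA and fell with LCA. Ulk1, the kinase that starts autophagy, rose with IsoAlloLCA (0.83 ± 0.08) and did not pass with LCA (-0.04 ± 0.08). Sqstm1, a cargo receptor of autophagy, rose with both (0.82 ± 0.06 with IsoAlloLCA and 0.28 ± 0.06 with LCA), and Atp6v0a1, a subunit of the lysosomal proton pump, rose with both (0.53 ± 0.10 with IsoAlloLCA and 0.98 ± 0.09 with LCA) and was lower with IsoAlloLCA (-0.45 ± 0.09). 

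**Figure D2:**
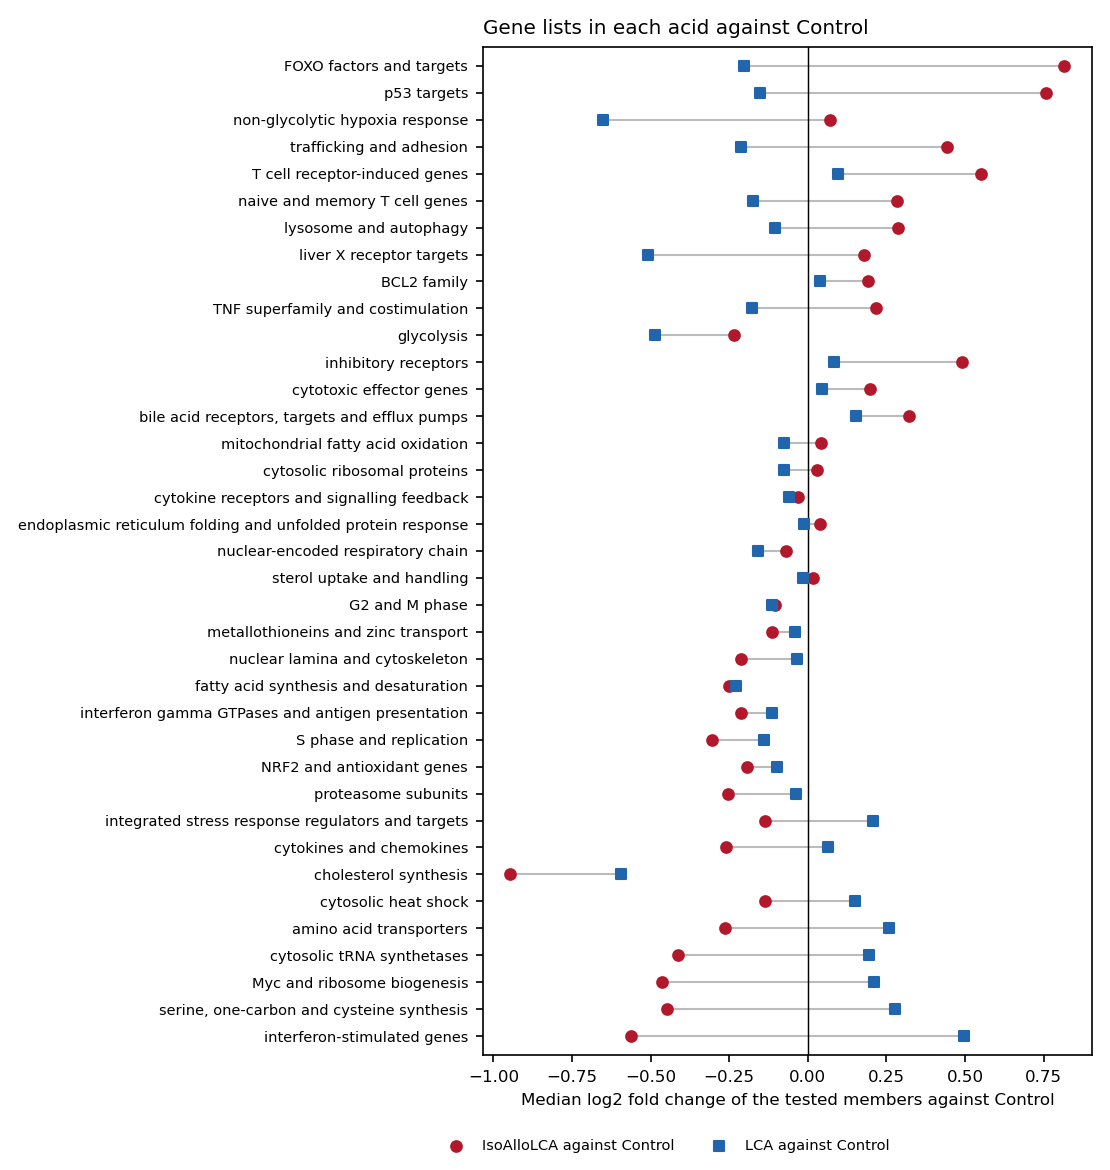
Median log2 fold change over Control of the tested members of each of 37 gene lists, for IsoAlloLCA (circles) and LCA (squares), lists ordered by their median difference between the acids. Interferon-stimulated genes lie at -0.56 with IsoAlloLCA and 0.50 with LCA, FOXO factors and targets at 0.82 with IsoAlloLCA and -0.20 with LCA, and cholesterol synthesis genes are below 0 with both.

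Most hypoxia response and glycolysis genes were higher with IsoAlloLCA than with LCA. Of 21 hypoxia genes outside glycolysis, 18 were higher and 1 was lower with IsoAlloLCA than with LCA. 6 rose, 6 fell and 9 did not pass with IsoAlloLCA over Control (median 0.07), and 2 rose and 16 fell with LCA (median -0.65). For all genes tested, 30.6% rose and 27.8% fell with IsoAlloLCA, and 17.7% rose and 18.8% fell with LCA. P4ha2, a collagen-modifying enzyme induced by low oxygen, had 17, 19.1 and 18 CPM with IsoAlloLCA, 4.91, 4.32 and 5.08 CPM with LCA and 16.3, 23.4 and 17 CPM in Control. IsoAlloLCA libraries overlapped Control, and LCA libraries lay below both (1.92 ± 0.19, edgeR adjusted p = 2.59e-09). Bnip3l, a receptor for the removal of mitochondria, had 191, 191 and 183 CPM with IsoAlloLCA, 72, 62 and 64.9 CPM with LCA and 148, 174 and 156 CPM in Control. LCA libraries were again the low ones (1.51 ± 0.08), and IsoAlloLCA rose slightly over Control (0.25 ± 0.08). Hif1a, the oxygen-sensitive factor, did not pass against Control with either acid (0.07 ± 0.04 with IsoAlloLCA and -0.06 ± 0.04 with LCA), and Vegfa, its angiogenic target, did not pass between the acids (-0.14 ± 0.08, 95% interval -0.31 to 0.04; -0.16, edgeR adjusted p = 0.00392, with the replicate number as a block within the 6 libraries). Car12, a carbonic anhydrase, was the 1 member lower with IsoAlloLCA (-0.95 ± 0.09). 

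Of 24 glycolysis genes, 21 were higher, 2 lower and 1 did not pass between the acids. 3 rose and 17 fell with IsoAlloLCA, and 0 rose and 21 fell with LCA over Control, with medians of -0.23 for IsoAlloLCA and -0.49 for LCA. Pgk1, which makes ATP in the pathway, had 1392, 1242 and 1315 CPM with IsoAlloLCA, 952, 861 and 936 CPM with LCA and 1466, 1624 and 1582 CPM in Control. Both acids lay below Control and LCA lay lower (0.52 ± 0.05, edgeR adjusted p = 5.13e-09). Slc2a3, a glucose transporter, had 414, 461 and 414 CPM with IsoAlloLCA, 166, 162 and 159.7 CPM with LCA and 312, 389.5 and 324 CPM in Control. It instead rose with IsoAlloLCA and fell with LCA (1.40 ± 0.09). Aldoc, an aldolase, averaged 30.03 ± 1.13 CPM with IsoAlloLCA, 10.9 ± 0.955 CPM with LCA and 45.2 ± 5.72 CPM in Control, and Slc16a3, a lactate exporter, averaged 268 ± 12.3 CPM with IsoAlloLCA, 141 ± 7.98 CPM with LCA and 298 ± 14.9 CPM in Control. Both fell with each acid, and further with LCA (differences 1.47 ± 0.12 and 0.93 ± 0.06). Slc16a1, a monocarboxylate transporter, was lower with IsoAlloLCA (-0.58 ± 0.06). 

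Genes of the liver X receptors, which act when oxysterols are plentiful, also separated the isomers. The list holds sterol exporters such as Abcg1 and Abca1, genes of fatty acid synthesis and other targets, and the receptor genes themselves. 8 of 13 were higher and 1 was lower with IsoAlloLCA than with LCA. 4 rose and 5 fell with IsoAlloLCA, and 0 rose and 9 fell with LCA over Control. Abcg1, a sterol exporter (chromosome 17, 31057694 to 31117981, plus strand), had 29.3, 33.2 and 30.9 CPM with IsoAlloLCA, 8.28, 5.97 and 6.88 CPM with LCA and 27, 27.9 and 27.8 CPM in Control. It fell with LCA (-1.96 ± 0.09) and did not pass with IsoAlloLCA (0.18 ± 0.08, edgeR adjusted p = 0.0588), for a difference of 2.14 ± 0.09. Abca1, the other exporter, was scarce, with 1.3, 1.74 and 1.67 CPM with IsoAlloLCA, 0.197, 0.196 and 0.25 CPM with LCA and 0.774, 1.02 and 0.773 CPM in Control. It rose with IsoAlloLCA (0.87 ± 0.20) and fell with LCA (-1.98 ± 0.29). Srebf1, the factor that drives fatty acid synthesis, fell with both acids, less with IsoAlloLCA (-0.18 ± 0.04) than with LCA (-0.53 ± 0.04). 

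Genes of the p53 response were higher with IsoAlloLCA than with LCA in 19 of 27, lower in 5 and did not pass in 3, with a median of 0.97. 21 rose and 2 fell with IsoAlloLCA, and 4 rose and 13 fell with LCA over Control. Cdkn1a, the cell cycle inhibitor p21, had 268, 232 and 259 CPM with IsoAlloLCA, 103, 89.4 and 101 CPM with LCA and 131, 134 and 147 CPM in Control. The groups did not overlap, and Control lay between the acids (1.37 ± 0.07, edgeR adjusted p = 1.14e-14). Trp53inp1 (2.34 ± 0.09), a stress-induced p53 cofactor, Btg2 (2.01 ± 0.11), an antiproliferative factor, and Phlda3 (1.71 ± 0.09), an inhibitor of AKT, likewise rose with IsoAlloLCA and fell with LCA. The death receptor gene Fas averaged 25.4 ± 0.384 CPM with IsoAlloLCA, 9.05 ± 0.51 CPM with LCA and 9.3 ± 0.36 CPM in Control. It rose with IsoAlloLCA and did not pass with LCA. Trp53 itself was lower with IsoAlloLCA than with LCA (-0.16 ± 0.04) and did not pass against Control with either acid. 

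Among BCL2 family genes, which decide whether mitochondria release death signals, 9 of 19 were higher and 4 lower with IsoAlloLCA. For all genes tested, the shares were 32.3% higher and 29.1% lower. The killers that contain only the BH3 motif led the higher BCL2 family genes. Bbc3, which encodes PUMA, had 44.7, 53.6 and 44.7 CPM with IsoAlloLCA, 12.2, 13.9 and 14.2 CPM with LCA and 14.9, 15.7 and 14.5 CPM in Control, and Bcl2l11, which encodes BIM, had 137, 176 and 147 CPM with IsoAlloLCA, 53.3, 52.8 and 50.3 CPM with LCA and 52.3, 50.3 and 46.9 CPM in Control. In both genes every IsoAlloLCA library was above the other groups (differences 1.83 ± 0.08 and 1.56 ± 0.08), and LCA over Control did not pass. Bmf (1.15 ± 0.12) and Pmaip1, which encodes NOXA (1.21 ± 0.05), were also higher with IsoAlloLCA, and Bid was lower (-0.59 ± 0.06). Of the survival members, Mcl1 was higher (0.43 ± 0.03), Bcl2l1 lower (-0.36 ± 0.07), and Bcl2 did not pass (0.07 ± 0.05, 95% interval -0.03 to 0.17). 

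Genes induced by the T cell receptor were higher with IsoAlloLCA in 24 of 37 and lower in 9. 21 rose and 8 fell with IsoAlloLCA, and 12 rose and 10 fell with LCA over Control. Tnfaip3 and Nfkbia, which restrain NF-kappaB, rose with both acids and further with IsoAlloLCA. Tnfaip3 had 118, 169.5 and 113 CPM with IsoAlloLCA, 32.1, 31.7 and 34.4 CPM with LCA and 22.6, 27.9 and 23.6 CPM in Control, without overlap between the groups (2.03 ± 0.11, edgeR adjusted p = 5.15e-14), and Nfkbia averaged 113 ± 11.3 CPM with IsoAlloLCA, 57.2 ± 3.35 CPM with LCA and 33.7 ± 3.37 CPM in Control (0.99 ± 0.07). The orphan receptor gene Nr4a1, an early marker of receptor signalling, had 26.1, 29.4 and 25.1 CPM with IsoAlloLCA, 14.4, 13.7 and 15.2 CPM with LCA and 11, 12.8 and 11 CPM in Control. It rose with both acids, more with IsoAlloLCA (0.90 ± 0.07), as did the activation marker Cd69 (1.49 ± 0.06 with IsoAlloLCA and 0.56 ± 0.06 with LCA) and the early factor Egr1 (1.64 ± 0.10 with IsoAlloLCA and 0.58 ± 0.10 with LCA). Jun and Irf4, transcription factors of activation, instead rose with IsoAlloLCA (0.82 ± 0.09 and 0.18 ± 0.04) and fell with LCA (-1.04 ± 0.10 and -0.86 ± 0.04). Rgs2, a regulator of G protein signalling, averaged 16.3 ± 5.01 CPM with IsoAlloLCA, 3.29 ± 0.357 CPM with LCA and 2.63 ± 0.397 CPM in Control, with no call for LCA over Control. 

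In the TNF superfamily and costimulation list, 13 of 24 were higher and 3 lower with IsoAlloLCA. 13 rose and 5 fell with IsoAlloLCA, and 2 rose and 10 fell with LCA over Control. Tnfsf4, which encodes the costimulatory ligand OX40L (chromosome 1, 161395438 to 161418206, plus strand), had 21.9, 22.9 and 20.6 CPM with IsoAlloLCA, 2.83, 2.27 and 2.38 CPM with LCA and 3.19, 2.88 and 3.26 CPM in Control. It stood out with IsoAlloLCA (3.12 ± 0.11, edgeR adjusted p = 2.73e-17), while LCA libraries did not differ from Control beyond the threshold (-0.31 ± 0.14, edgeR adjusted p = 0.0726). Its receptor gene Tnfrsf4 was higher by 0.44 ± 0.08 and the costimulatory receptor gene Tnfrsf9 by 0.90 ± 0.09. Tnfrsf26, a further receptor gene of the family, rose with IsoAlloLCA (1.32 ± 0.10) and fell with LCA (-0.97 ± 0.11). Tnfrsf8, which encodes the activation antigen CD30, had 2.66, 2.11 and 3.31 CPM with IsoAlloLCA, 11.4, 10.3 and 9.29 CPM with LCA and 16.1, 18.5 and 18.2 CPM in Control. It fell with both acids and further with IsoAlloLCA (-1.96 ± 0.14), without overlap.

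Effector genes did not move as a block: of 27 cytotoxic effector genes, 16 were higher, 5 lower and 6 did not pass. Gzmb, the main killing protease of these cells, had 2473, 1831 and 2429.7 CPM with IsoAlloLCA, 3075, 2639.6 and 2914 CPM with LCA and 3610.2, 3695 and 4044 CPM in Control. It fell with both acids and further with IsoAlloLCA (-0.36 ± 0.09, edgeR adjusted p = 7.83e-04). Prf1, the pore-forming partner, fell with both (-0.58 ± 0.11 with IsoAlloLCA and -0.76 ± 0.11 with LCA), and the acids differed by 0.18 ± 0.11 with a 95% interval of -0.05 to 0.40, which did not pass (edgeR adjusted p = 0.0299 with the replicate number as a block within the 6 libraries). Other granzymes did not move alike. Gzma fell with both acids (-0.94 ± 0.11 with IsoAlloLCA and -0.69 ± 0.10 with LCA over Control). Gzmc averaged 72.8 ± 1.52 CPM with IsoAlloLCA, 34.8 ± 1.87 CPM with LCA and 16.9 ± 0.844 CPM in Control. Gzmd averaged 13.3 ± 3.05 CPM with IsoAlloLCA, 3.45 ± 0.712 CPM with LCA and 3.63 ± 1.35 CPM in Control. Gzmc rose with both acids and Gzmd with IsoAlloLCA, though reads of the clustered granzymes may be shared. Klrd1, a subunit of the NKG2 receptors, had 126, 151 and 132 CPM with IsoAlloLCA, 43, 43.4 and 47.9 CPM with LCA and 44.6, 43.1 and 41.1 CPM in Control, and stood apart with IsoAlloLCA (1.61 ± 0.08). Tbx21, the factor of type 1 effectors, fell with both acids and was lower with IsoAlloLCA (-0.66 ± 0.06). 

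Of 19 cytokine and chemokine genes tested, 4 were higher, 8 lower and 7 did not pass. For all genes tested, the shares were 32.3% higher and 29.1% lower. Tnf had 32.1, 29.9 and 33.6 CPM with IsoAlloLCA, 48.2, 48.6 and 48.9 CPM with LCA and 39, 35.7 and 39.5 CPM in Control. It fell with IsoAlloLCA and rose with LCA (-0.61 ± 0.07), as did Lta, its close relative (-0.38 ± 0.11 with IsoAlloLCA and 0.33 ± 0.11 with LCA). Lif, a cytokine of the IL-6 family, had 24.4, 21.4 and 28 CPM with IsoAlloLCA, 75.5, 74.4 and 74.2 CPM with LCA and 98.8, 103 and 107 CPM in Control. It fell with both acids and most with IsoAlloLCA (-1.61 ± 0.14). Ifng averaged 4 ± 0.9 CPM with IsoAlloLCA, 4.62 ± 1.03 CPM with LCA and 4.43 ± 0.973 CPM in Control, and did not pass between the acids (-0.19 ± 0.17, 95% interval -0.55 to 0.16) or against Control. Ccl5, a T cell chemokine, rose with both (1.16 ± 0.12 with IsoAlloLCA and 1.02 ± 0.12 with LCA), and the acids differed by 0.14 ± 0.11 with an interval of -0.09 to 0.36. Csf1, the macrophage growth factor, averaged 10.5 ± 0.944 CPM with IsoAlloLCA, 3.03 ± 0.339 CPM with LCA and 1.99 ± 0.241 CPM in Control and rose with both. 

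The inhibitory receptor list also holds ligands of such receptors, enzymes such as Nt5e, and Tox. Its genes were higher with IsoAlloLCA in 13 of 19, lower in 1 and did not pass in 5. Lag3 had 166, 179 and 155 CPM with IsoAlloLCA, 84.1, 76.8 and 76.3 CPM with LCA and 106, 117 and 106 CPM in Control. It rose with IsoAlloLCA and fell with LCA without overlap (1.07 ± 0.07, edgeR adjusted p = 2.89e-12), as did Ctla4 (0.68 ± 0.06 with IsoAlloLCA and -0.45 ± 0.06 with LCA). Tigit (1.05 ± 0.08), Havcr2, which encodes TIM-3 (0.83 ± 0.08), and Pdcd1, which encodes PD-1 (0.48 ± 0.09), rose with IsoAlloLCA and did not pass with LCA. Tox, a factor of exhausted T cells, rose with both (0.65 ± 0.06 with IsoAlloLCA and 0.44 ± 0.06 with LCA), and Nt5e, which makes adenosine, fell with both (-0.65 ± 0.14 with IsoAlloLCA and -1.25 ± 0.14 with LCA). 

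**Figure D3:**
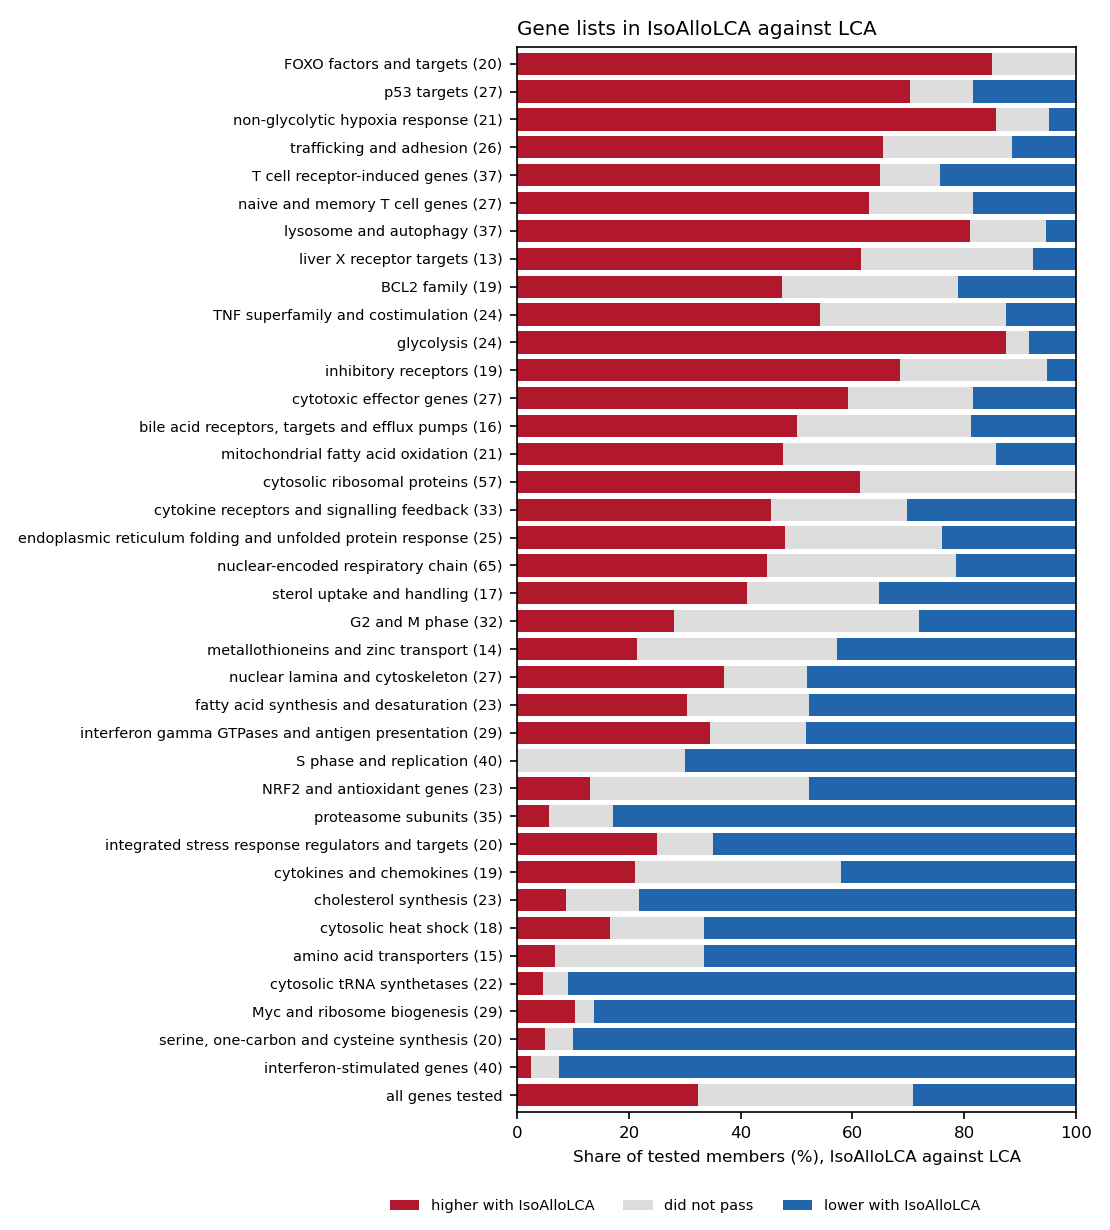
Share of the tested members of each gene list (number in brackets) that was higher, did not pass or was lower with IsoAlloLCA against LCA, with all genes tested at the bottom. In order of their median difference between the acids, the lists run from FOXO factors and targets, with 17 of 20 higher, to interferon-stimulated genes, with 37 of 40 lower.

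Cholesterol synthesis fell with both isomers. Of 23 genes of the pathway, 22 fell and 0 rose with IsoAlloLCA, and 22 fell and 0 rose with LCA over Control, with medians of -0.95 and -0.59. The fall was larger with IsoAlloLCA: 18 members were lower and 2 higher with IsoAlloLCA than with LCA (median -0.30). Hmgcs1, the synthase that starts the pathway (chromosome 13, 119690351 to 119708260, plus strand), had 187, 163 and 172 CPM with IsoAlloLCA, 264, 252 and 246 CPM with LCA and 415, 452 and 430.4 CPM in Control. Its groups did not overlap (-0.55 ± 0.06, edgeR adjusted p = 1.46e-08). Fdps, a prenyl synthase, had 97, 82 and 86.4 CPM with IsoAlloLCA, 151, 136 and 146 CPM with LCA and 209, 234 and 225 CPM in Control. It followed the same order (-0.71 ± 0.06). Cyp51, the lanosterol demethylase, fell with both acids too (-1.20 ± 0.07 with IsoAlloLCA and -0.73 ± 0.06 with LCA). Srebf2, the factor that drives these genes, fell slightly with both (-0.28 ± 0.03 with IsoAlloLCA and -0.37 ± 0.03 with LCA). Lbr, a sterol reductase of the nuclear envelope, fell by nearly the same amount (-0.42 ± 0.03 with IsoAlloLCA and -0.41 ± 0.03 with LCA), and the difference between the acids had an interval of -0.08 to 0.06. Ggps1, which branches off to other prenyl lipids, did not pass in any of the 3 comparisons. 

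Of 17 sterol uptake and handling genes, 7 were higher, 6 lower and 4 did not pass between the acids, where 32.3% of all genes tested were higher and 29.1% lower. 6 rose and 7 fell with IsoAlloLCA, and 3 rose and 8 fell with LCA over Control. Insig1, the sterol sensor, fell with both acids (-1.18 ± 0.07 with IsoAlloLCA and -0.80 ± 0.07 with LCA). Soat2, which esterifies cholesterol, and Lrp8, an apolipoprotein receptor, fell with IsoAlloLCA (-0.60 ± 0.10 and -0.66 ± 0.08) and rose with LCA (0.44 ± 0.09 and 0.23 ± 0.08). Of 23 fatty acid synthesis and desaturation genes, 4 rose and 15 fell with IsoAlloLCA, and 2 rose and 12 fell with LCA over Control. Scd1, which makes monounsaturated fatty acids, had 63.1, 47.7 and 58.6 CPM with IsoAlloLCA, 80.2, 62.1 and 71.2 CPM with LCA and 219, 249 and 238 CPM in Control. Both acids lay far below Control (-2.06 ± 0.11 with IsoAlloLCA and -1.72 ± 0.10 with LCA), and their libraries overlapped, although the test between them passed (-0.34 ± 0.11, edgeR adjusted p = 0.00852), a call lost without IsoAlloLCA replicate 2 (-0.23) or without LCA replicate 1 (-0.25). Fads2, another desaturase, fell with both as well (-1.13 ± 0.07 with IsoAlloLCA and -0.77 ± 0.06 with LCA). Lpin1, a phosphatidate phosphatase, rose with IsoAlloLCA (0.28 ± 0.07) and fell with LCA (-0.75 ± 0.07). 

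Other genes fell with both acids. Acp5, an acid phosphatase, had 12.8, 12.6 and 12.2 CPM with IsoAlloLCA, 10.3, 10.1 and 9.79 CPM with LCA and 32.9, 35.9 and 32.1 CPM in Control. Both acids lay below Control and LCA slightly lower (0.32 ± 0.08, edgeR adjusted p = 0.00194). The tubulin gene Tubb6 averaged 32.8 ± 3.36 CPM with IsoAlloLCA, 27.5 ± 2.46 CPM with LCA and 83.5 ± 2.1 CPM in Control, and fell with both (-1.35 ± 0.07 with IsoAlloLCA and -1.60 ± 0.07 with LCA), though tubulin genes may share reads. Treml2, a receptor of activated T cells, had 29.6, 33.1 and 31.5 CPM with IsoAlloLCA, 87.9, 86 and 85.9 CPM with LCA and 139.7, 135 and 137 CPM in Control, without overlap. It fell further with IsoAlloLCA (-1.46 ± 0.04). The repressor gene Gfi1 (-1.12 ± 0.07 with IsoAlloLCA and -0.66 ± 0.07 with LCA) and Bspry (-2.17 ± 0.10 with IsoAlloLCA and -0.80 ± 0.08 with LCA) fell in the same way. 

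Genes that rose with both acids included a nuclear lamina gene and activation markers. Lmna, which encodes lamins A and C (chromosome 3, 88481148 to 88503352, minus strand), had 68.7, 66.1 and 66.6 CPM with IsoAlloLCA, 18.7, 19 and 18.5 CPM with LCA and 7.43, 6.94 and 6.54 CPM in Control. Every IsoAlloLCA library was above every LCA library, and these above Control (1.84 ± 0.05, edgeR adjusted p = 8.88e-19; 3.27 ± 0.06 for IsoAlloLCA and 1.43 ± 0.07 for LCA over Control). Cd83, an activation marker, had 15.8, 20.3 and 13.8 CPM with IsoAlloLCA, 5.82, 5.58 and 5.6 CPM with LCA and 1.83, 2.57 and 1.77 CPM in Control. Its order was the same, without overlap (1.56 ± 0.13). Ttc39c, a tetratricopeptide protein, averaged 18.3 ± 1.78 CPM with IsoAlloLCA, 9.71 ± 1.13 CPM with LCA and 3.12 ± 0.333 CPM in Control, and rose with both (0.92 ± 0.11 between the acids). The B-type lamin genes did not follow Lmna: Lmnb1 was lower with IsoAlloLCA (-0.41 ± 0.03), and LCA over Control did not pass (-0.07 ± 0.03). Cd74, the invariant chain of class II molecules, had 10.5, 11.5 and 9.71 CPM with IsoAlloLCA, 12, 13.8 and 13.6 CPM with LCA and 4.27, 4.96 and 4.92 CPM in Control. Both acids were above Control, and LCA was higher (-0.31 ± 0.09, edgeR adjusted p = 0.00459). Cxcl10, an interferon-induced chemokine, also rose with both (1.13 ± 0.16 with IsoAlloLCA and 1.54 ± 0.16 with LCA) and was lower with IsoAlloLCA (-0.41 ± 0.14), a call lost without IsoAlloLCA replicate 3 (-0.35) or LCA replicate 3 (-0.35). The metal-binding Mt2 rose with both (1.05 ± 0.07 with IsoAlloLCA and 0.68 ± 0.07 with LCA), and its near-identical neighbour Mt1, with which it may share reads, rose with IsoAlloLCA (0.82 ± 0.06) and did not pass with LCA (0.15 ± 0.06). 

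**Figure D4:**
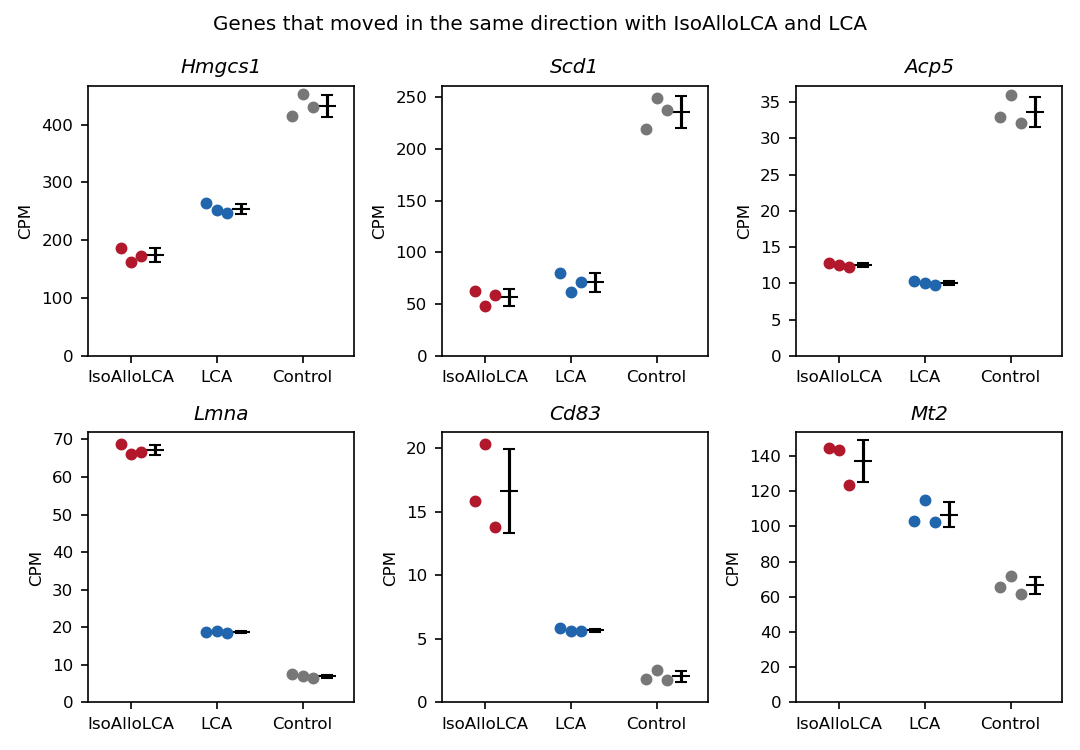
Levels in CPM (linear axis from 0) of 6 genes in each IsoAlloLCA, LCA and Control library, with the mean and SD (n = 3) beside the points. Hmgcs1, Scd1 and Acp5 are below Control with both acids, and Lmna, Cd83 and Mt2 are above Control with both.

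The genes of bile acid receptors, their targets and efflux pumps were mixed. Of 24 such genes, 16 were tested, and 8 were higher, 3 lower and 5 did not pass between the acids. For all genes tested, the shares were 32.3% higher and 29.1% lower. Gpbar1 and Nr1h4, which encode the main membrane and nuclear bile acid receptors, had too few counts to be tested. Vdr, the vitamin D receptor gene, had 3.87, 3.53 and 3.09 CPM with IsoAlloLCA, 4.03, 3.87 and 2.97 CPM with LCA and 2.23, 3.16 and 2.6 CPM in Control. It rose with both acids (0.40 ± 0.16 with IsoAlloLCA and 0.45 ± 0.15 with LCA), and the difference between them had a 95% interval of -0.35 to 0.25. Rxra, the nuclear partner of Vdr, had 33.2, 25.9 and 28.6 CPM with IsoAlloLCA, 35.1, 32.7 and 34.2 CPM with LCA and 22, 19.4 and 22.4 CPM in Control. Both acids were above Control, and the test between them passed with overlapping libraries (-0.22 ± 0.07, edgeR adjusted p = 0.00646), a call lost without IsoAlloLCA replicate 2 (-0.13) or with exon share in the fit (-0.12). The drug efflux pump genes Abcb1a (0.97 ± 0.06) and Abcb1b (0.88 ± 0.03), near-identical copies that may share reads, rose with both acids and further with IsoAlloLCA. Rora, a nuclear receptor of the ROR family, rose with IsoAlloLCA (1.29 ± 0.18) and did not pass with LCA (-0.29 ± 0.19), and Pparg, a lipid-sensing receptor, fell with IsoAlloLCA (-1.98 ± 0.17) and did not pass with LCA (-0.26 ± 0.13). 

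A last group of genes moved with both acids by amounts that could hardly be told apart, here taken as genes of at least 10 CPM in a group that changed in the same direction over Control and whose 95% interval of the difference lay within 1.2-fold (0.263 on the log2 scale). B4galt5, a galactosyltransferase of glycolipid synthesis, had 157, 140.0 and 150.2 CPM with IsoAlloLCA, 151, 151 and 148 CPM with LCA and 112, 109 and 109 CPM in Control. The acids overlapped and both lay above Control (0.44 ± 0.04 with IsoAlloLCA and 0.45 ± 0.04 with LCA), with an interval of the difference of -0.09 to 0.07. Mvp, the major vault protein, rose by 0.50 ± 0.06 and 0.43 ± 0.06 (interval -0.06 to 0.18), and Impact, an inhibitor of the amino acid sensor kinase GCN2, by 0.51 ± 0.09 and 0.56 ± 0.09 (interval -0.23 to 0.14). Emilin2, an extracellular matrix protein, had 78.7, 64.7 and 74.7 CPM with IsoAlloLCA, 79.2, 68.5 and 74.6 CPM with LCA and 128, 152 and 150.2 CPM in Control. Both acids were well below Control (-0.98 ± 0.10 with IsoAlloLCA and -0.95 ± 0.09 with LCA) and overlapped each other (interval -0.23 to 0.17). The metabolic enzymes Idh1, the cytosolic isocitrate dehydrogenase (interval -0.20 to 0.23), Pcx, pyruvate carboxylase (interval -0.11 to 0.23), and Gatm, an enzyme of creatine synthesis (interval -0.19 to 0.23), fell with both. Idh1 averaged 9.17 ± 0.595 CPM with IsoAlloLCA, 9.07 ± 0.739 CPM with LCA and 15.7 ± 1.57 CPM in Control, Pcx averaged 55.2 ± 4.55 CPM with IsoAlloLCA, 52.9 ± 2.69 CPM with LCA and 81.6 ± 5.55 CPM in Control and Gatm averaged 12.8 ± 1.82 CPM with IsoAlloLCA, 12.6 ± 1.74 CPM with LCA and 19 ± 1.29 CPM in Control. Pygm, the muscle-type glycogen phosphorylase, fell with both (-0.82 ± 0.05 with IsoAlloLCA and -0.95 ± 0.05 with LCA), and the small difference between the acids passed (0.13 ± 0.05, edgeR adjusted p = 0.0373), a call lost with the block within the 6 libraries (0.11, edgeR adjusted p = 0.17), without IsoAlloLCA replicate 1 (0.09), LCA replicate 2 (0.08) or LCA replicate 3 (0.13), with RLE scaling (0.11), with no filter (0.11), with the libraries of these groups alone (0.11) and with DESeq2 (0.11). Pygl, the liver-type enzyme, instead rose with IsoAlloLCA (0.76 ± 0.17) and fell with LCA (-1.70 ± 0.20). 

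**Figure D5:**
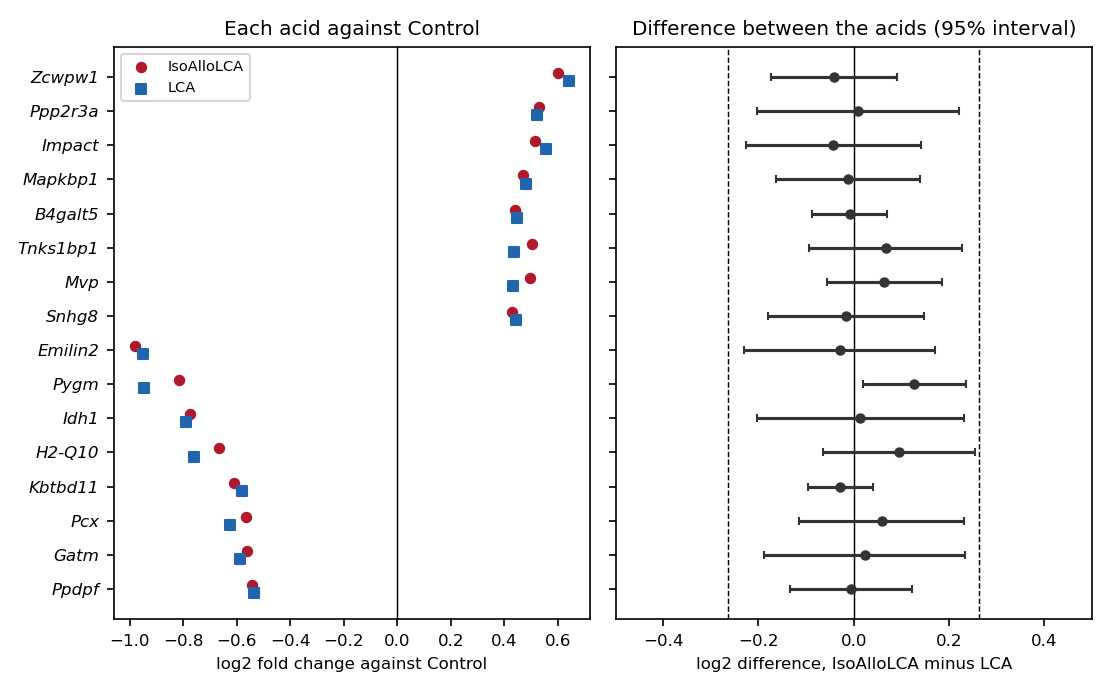
Log2 fold change over Control of the 16 genes that moved alike with IsoAlloLCA (circles) and LCA (squares), at left, and their log2 difference IsoAlloLCA minus LCA with its 95% interval, at right. Dashed lines mark 1.2-fold (0.263 on the log2 scale), within which the intervals of these genes lay by the rule that chose them.

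Genes of S phase fell with both acids, in more members with IsoAlloLCA. All 40 S phase and replication genes were tested, and 38 fell with IsoAlloLCA and 23 with LCA over Control, while 1 rose with LCA. 28 were lower with IsoAlloLCA than with LCA and 12 did not pass (median -0.20). Mcm2, a subunit of the replicative helicase, had 287, 249 and 276 CPM with IsoAlloLCA, 405, 395 and 409.7 CPM with LCA and 399, 402 and 423 CPM in Control. It was low with IsoAlloLCA, and LCA libraries overlapped Control (-0.58 ± 0.04, edgeR adjusted p = 2.32e-12). The replication clamp gene Pcna fell with both (-0.43 ± 0.04 with IsoAlloLCA and -0.25 ± 0.04 with LCA). In the G2 and M phase list 9 of 32 were higher and 9 lower between the acids, counts near those of all genes tested. Over Control, however, 18 of the 32 fell and 3 rose with IsoAlloLCA (27.8% and 30.6% of all genes). With LCA, 20 fell and 0 rose (18.8% and 17.7% of all genes). Mki67, a marker of cycling cells, did not pass in any of the 3 comparisons (between the acids -0.03 ± 0.05, interval -0.14 to 0.08). 

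IsoLCA shares the beta hydroxyl of IsoAlloLCA and the cis ring junction of LCA, and its 3 libraries at the same dose are given here as levels, with no test. Ccng2 had 39.9, 46.4 and 32.6 CPM with IsoLCA, against the 117 CPM average of IsoAlloLCA and 24.4 CPM of LCA. Isg15 had 5.8, 4.69 and 4.53 CPM with IsoLCA, Trib3 had 68.6, 59.4 and 75.5 CPM, Tnfsf4 had 3.49, 4.59 and 3.35 CPM and Bcl2l11 had 50.03, 56.5 and 48.5 CPM. Control averaged 6.07, 70.1, 3.11 and 49.8 CPM of these 4 genes. Lmna had 23.6, 23.1 and 24.2 CPM with IsoLCA, closer to LCA than to IsoAlloLCA, and Hmgcs1 had 398, 372 and 384 CPM, closer to Control than to either. Mt2 had 247, 227 and 235 CPM with IsoLCA, above both isomers.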

How the data were processed

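RNA-seq was done on mouse CD8+ T cells activated in culture, and libraries were assigned to groups and replicate numbers by their titles. The deposited table covers 24537 genes through 1 RefSeq transcript apiece, and the authors' values in it are expected counts of reads over exons on mm10, without normalization, made by HOMER per the file headers. STAR, DESeq2 and GRCm38 are named, with no version, per the submitters' processing notes. No source used here gives the strand option, so reads of overlapping, antisense or near-identical genes may be mixed. The deposited values run in steps of 0.5 (29.43% are not whole) and were rounded to whole numbers, upward at 0.5. The design had assumed whole counts, and the same count test was used.

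All 24 libraries were fitted with edgeR 4.0.16 in R 4.3.3 (TMM, filterByExpr, which kept 13044 genes, glmQLFit and glmQLFTest) with 1 coefficient per group and no block, on 16 residual degrees of freedom, and p-values were adjusted by Benjamini-Hochberg over the genes of a comparison. The common biological coefficient of variation was 4.41%. The SE is the log2 difference divided by the square root of the test's F statistic. Replicates of IsoAlloLCA, LCA and Control differed by 3.24 to 18.3 in chi-square per degree of freedom, more than sampling noise. In simulated counts for IsoAlloLCA against LCA with 200 of 13044 genes changed, 72% of the 1.2-fold and 100% of the 1.5-fold changes were called, and 1.71% of calls were unchanged genes. The simulated libraries were independent, all genes had the common dispersion, and only well-counted genes were changed. The data are less simple and far more of their genes were called, so these rates need not hold for them.

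Same-numbered libraries of IsoAlloLCA and LCA deviated together from their group means (r = 0.62, 0.487 and 0.153 over genes). With Control the same-numbered values were -0.645, 0.198 and -0.0502 for IsoAlloLCA and -0.51, 0.0683 and -0.0271 for LCA. Libraries of unlike number could be as close or opposed. The value was 0.677 for IsoAlloLCA replicate 1 with Control replicate 3 and 0.529 for IsoAlloLCA replicate 2 with Control replicate 1. It was -0.641 for IsoAlloLCA replicate 2 with Control replicate 3. The labels state no pairing, and these values do not establish one. The alternatives were RLE scaling, no filter on low counts, DESeq2 1.42.0, a fit to the libraries of the groups compared alone, replicate blocks, exon share as a covariate and leaving out each library. A total of 37 gene lists were described by counts and, in text or figure, medians, and 7 marker lists by summed CPM, with no set test. Members and lists were chosen with earlier results of these data known. Named genes follow a rule: the largest, the most opposed and the most closely matched genes of at least 10 CPM in a group, the 4 members of each list with the smallest adjusted p and a fixed set. Of 209 genes named, 123 follow it and 86 were chosen after their values were seen, to describe the roles in a list. Gzma and Cst3 are named besides these, and their values under the alternatives are not given. A few genes picked by this rule are left out.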

Additional observations from a re-analysis of the deposited data

How the results depend on the processing

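The counts of called genes moved little. For IsoAlloLCA against LCA they were 8005 in the fit reported, 8026 with RLE scaling, 7939 with no filter, 7659 with DESeq2, 7171 with the libraries of these groups alone, 8224 with exon share as a covariate, and 7375 to 7956 when 1 library was left out. Leaving out 1 library gave 6650 to 7631 called genes for IsoAlloLCA against Control (7618 in full) and 3648 to 4504 for LCA against Control (4765 in full). The replicate number as a block in the fit of 24 libraries gave 8101 called genes, 4265 higher and 3836 lower, and as a block within the 6 libraries, an alternative chosen after seeing the data like exon share, 8221, 4055 higher and 4166 lower. Apart from the genes for which it is given, the block within the 6 libraries changed the call of Hif1a and Srebf2 (adjusted p = 0.0564 and 0.269). Of the list counts under the alternatives, 479 stayed within 1.5 times their value and 2 did not: the 9 G2 and M phase genes higher with IsoAlloLCA became 5 with the libraries of these groups alone and 5 to 11 when 1 library was left out, the lowest without LCA replicate 2. The cause was not tested.

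The log2 difference between the acids changed sign under some alternatives in 10 genes, none of which passed the test in the fit reported. With exon share as a covariate the value was 0.0294 for B4galt5, 0.0115 for Emilin2, 0.022 for Hspa5, 0.0508 for Il2ra, 0.0254 for Lbr and 0.0262 for Vdr. For Idh1 it was -0.00122 with RLE scaling, -0.00127 with no filter, -0.00245 with DESeq2, -0.00634 with the libraries of these groups alone and -0.0062 with the block within the 6 libraries. When 1 library was left out, it ran from -0.0489 to 0.0345 for B4galt5, -0.0932 to 0.0495 for Emilin2, -0.0506 to 0.0491 for Foxo4, -0.104 to 0.14 for Gatm, -0.0997 to 2.3e-05 for Hspa5, -0.0434 to 0.0765 for Idh1, -0.078 to 0.0534 for Il2ra, -0.108 to 0.0474 for Impact, -0.0427 to 0.0366 for Lbr and -0.176 to 0.0325 for Vdr. Calls lost under an alternative and not given elsewhere were those of Cd4 (0.63) and Nt5e (0.29) without IsoAlloLCA replicate 2, Tubb6 (0.18) without LCA replicate 2, and Hif1a and Srebf2 under several. With exon share as a covariate, Impact (-0.22) and Vegfa (-0.23) passed. The causes were not tested. Counting depth limits genes at a few CPM, and 3 libraries per group limit all differences near the threshold.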

Other observations

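Of 35 proteasome subunit genes, 2 were higher, 29 lower and 4 did not pass with IsoAlloLCA against LCA, with a median of -0.20, where 32.3% of all genes tested were higher and 29.1% lower. 0 rose and 33 fell with IsoAlloLCA, and 1 rose and 8 fell with LCA over Control. Psmd7, a lid subunit, averaged 136 ± 10.4 CPM with IsoAlloLCA, 204 ± 6.39 CPM with LCA and 193 ± 9.65 CPM in Control (difference -0.59 ± 0.05). Of 18 heat shock genes, mostly cytosolic with some mitochondrial chaperones, 12 were lower with IsoAlloLCA and 3 higher. Hspa8, the constitutive chaperone, had 2120.2, 2126 and 2017 CPM with IsoAlloLCA, 3175, 3138 and 3179.8 CPM with LCA and 2342, 2413 and 2546 CPM in Control. It fell with IsoAlloLCA and rose with LCA (-0.60 ± 0.04). The stress-induced copies Hspa1a and Hspa1b, which may share reads, went the other way, at 5.17 and 9.74 CPM on average with IsoAlloLCA, 0.436 and 1.73 CPM with LCA and 0.371 and 1.09 CPM in Control (differences 3.57 ± 0.22 and 2.51 ± 0.19). Of 25 endoplasmic reticulum folding genes, 12 were higher, 6 lower and 7 did not pass, with a median of 0.09. Among all genes tested, 32.3% were higher and 29.1% lower. Xbp1, a driver of that response, was lower with IsoAlloLCA (-0.69 ± 0.06) and did not pass with LCA over Control (0.01 ± 0.06), while the chaperone gene Hspa5 did not pass between the acids (-0.04 ± 0.05, interval -0.14 to 0.05). 

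Of 27 nuclear lamina and cytoskeleton genes, 10 were higher, 13 lower and 4 did not pass between the acids. For all genes tested, the shares were 32.3% higher and 29.1% lower. In this list, 9 rose and 16 fell with IsoAlloLCA, and 3 rose and 7 fell with LCA over Control. For all genes tested, 30.6% rose and 27.8% fell with IsoAlloLCA, and 17.7% rose and 18.8% fell with LCA. The actin gene Actb had 3653, 3011 and 3379.8 CPM with IsoAlloLCA, 6117, 5982 and 6073 CPM with LCA and 6592, 6491 and 6920.4 CPM in Control. It was low with IsoAlloLCA (-0.86 ± 0.05), and LCA over Control was -0.14 ± 0.05. Vim, an intermediate filament, was higher with IsoAlloLCA (0.26 ± 0.03). Of 65 nuclear-encoded respiratory chain genes, 29 were higher and 14 lower between the acids. 4 rose and 25 fell with IsoAlloLCA, and 0 rose and 42 fell with LCA over Control. Uqcrh, a hinge protein of complex III, averaged 155 ± 7.43 CPM with IsoAlloLCA, 91.6 ± 5.39 CPM with LCA and 138 ± 4.49 CPM in Control (difference 0.76 ± 0.05). Cycs, cytochrome c, fell with both acids (-0.69 ± 0.06 with IsoAlloLCA and -0.34 ± 0.06 with LCA). Among 23 antioxidant genes, 11 were lower and 3 higher with IsoAlloLCA. Txnrd1, thioredoxin reductase, fell with IsoAlloLCA (-0.43 ± 0.04) and rose with LCA (0.32 ± 0.04), and Osgin1, an oxidative stress-induced growth inhibitor, averaged 0.294 ± 0.0298 CPM with IsoAlloLCA, 0.411 ± 0.144 CPM with LCA and 2.54 ± 0.424 CPM in Control and fell with both. Of 33 cytokine receptor and feedback genes, 15 were higher and 10 lower, where 32.3% of all genes tested were higher and 29.1% lower. Ifngr1, the interferon gamma receptor, rose with IsoAlloLCA (0.59 ± 0.06) and fell with LCA (-0.73 ± 0.06), and Il2ra, the high-affinity IL-2 receptor chain, fell with both (-0.38 ± 0.08 with IsoAlloLCA and -0.36 ± 0.08 with LCA), with an interval of the difference of -0.17 to 0.14.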
